A study of Mus musculus with 8 samples.

Results

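The cathepsin family of lysosomal proteases was examined in whole ear skin of mice as 10 named genes, Ctsa, Ctsb, Ctsc, Ctsd, Ctse, Ctsh, Ctsk, Ctsl, Ctss and Ctsz, chosen by symbol out of 41388 genes in the tables. All 10 were found, and all 10 had enough reads to be tested. The treated group was 4 ears from adult wild-type C57Bl/6 mice that received 1 nmol of topical MC903 daily for 12 days. MC903 is calcipotriol, a vitamin D analog that produces dermatitis-like inflammation in mouse skin. The comparison group was 4 ears from mice of the same strain and genotype given the ethanol vehicle. The labels name no sex, batch or pairing, and nothing in them ties a treated mouse to a vehicle mouse.

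Cathepsins are made as inactive precursors, sorted to the lysosome by mannose 6-phosphate tags and matured there at acid pH. Most are papain-type cysteine proteases (Ctsb, Ctsc, Ctsh, Ctsk, Ctsl, Ctss, Ctsz), whereas Ctsd and Ctse are aspartic proteases and Ctsa is a serine carboxypeptidase. In skin they are known for protein turnover and shedding in the epidermis, antigen processing in myeloid cells and collagen breakdown by fibroblasts, and cystatins and stefins inhibit the cysteine type.

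Library totals ran from 12310466 to 15575518 counts in MC903 skin and from 14223908 to 16837221 in vehicle skin. Vehicle replicate 2 stood apart. In it, 16 genes each at least 20 times above every other library, led by the salivary genes Bpifa2 and Amy1, took 31.1% of all counts. Levels are given as CPM, the read count relative to the library total, after TMM scaling, which offsets such a gain, and each fold change is a log2 ratio of MC903 over vehicle with its standard error. Genes with a Benjamini-Hochberg adjusted p under 0.05 in edgeR's quasi-likelihood test over all 16105 genes tested are called higher or lower. Whole ear was sequenced, so more cells of a type and more RNA per cell cannot be told apart.

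Cathepsin transcripts were mostly higher in MC903 skin. Of the 10 genes, 8 were called higher (Ctss, Ctsc, Ctse, Ctsl, Ctsz, Ctsh, Ctsb and Ctsk) and 2, Ctsd and Ctsa, were not called. Of all genes tested, 21.3% were called higher, 20.2% lower and 41.5% in either direction. The members were chosen with earlier results of these data known, so the shares are set side by side without a test. The median log2 fold change of the 10 was 1.22, and that of all genes tested was -0.03. In 7 of the 10 the MC903 libraries all lay above the vehicle libraries, as they did in 19.8% of all genes. The largest rise was 3.85-fold, in Ctss, and the smallest called rise was 1.56-fold, in Ctsk. Without vehicle replicate 2 the number called higher was 7, because Ctsk was lost (adjusted p = 0.0608). Macrophage and monocyte markers moved with the cathepsins: 10 of 11 were called higher and 1 lower, and their summed level was 1996 to 2626 CPM in MC903 skin, against 853 to 1017 CPM in vehicle skin. None of these markers was at 0, and their part in the cathepsin result was not tested.

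**Figure D1:**
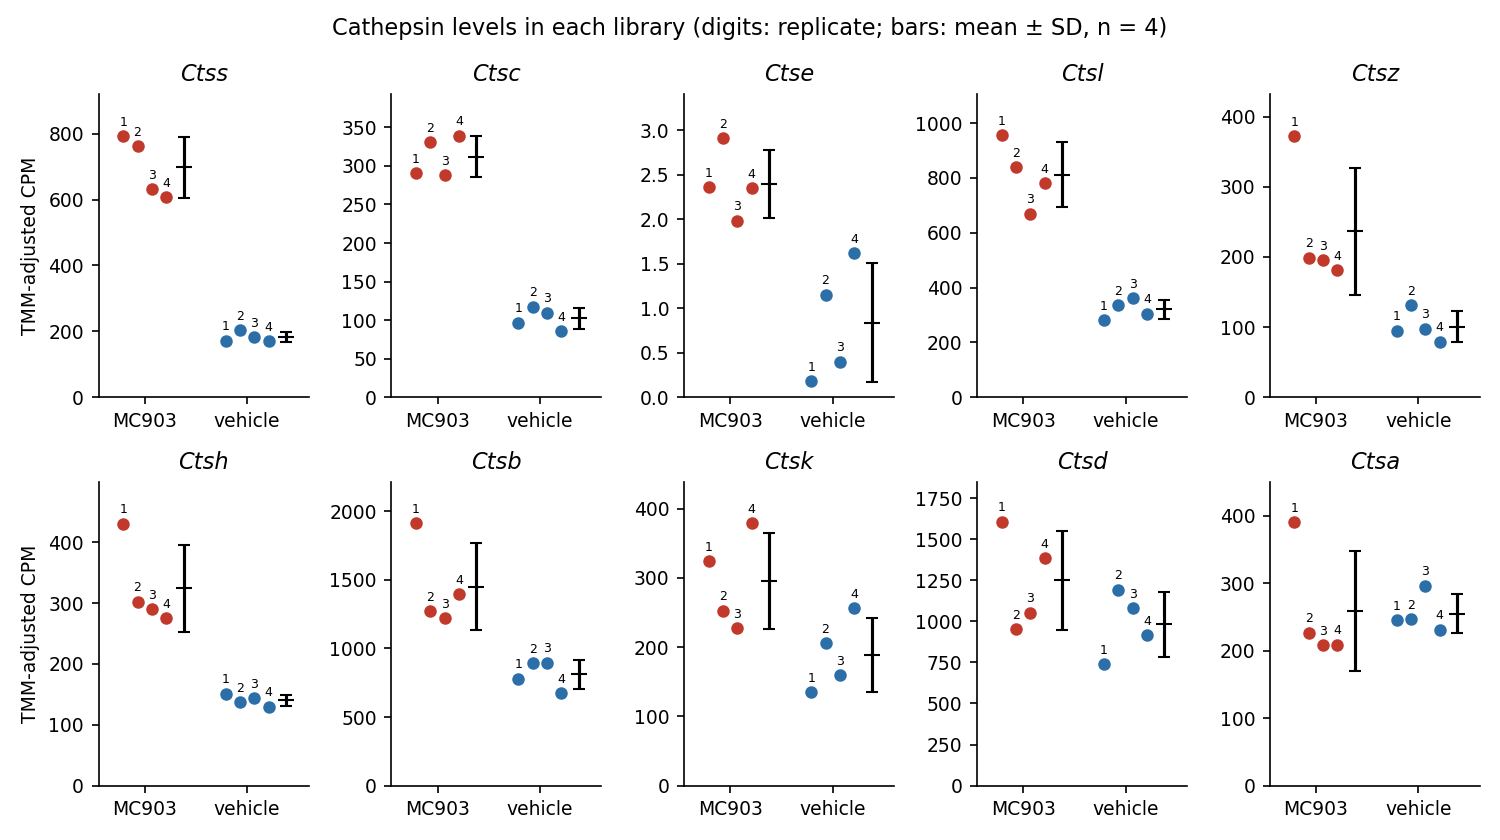
Level of each cathepsin in TMM-adjusted CPM (vertical axis, linear from 0) in the 4 MC903 and 4 vehicle libraries, ordered by fold change. Each point is a library with its replicate number, and bars give the mean ± SD. The groups are apart in 7 genes and overlap in Ctsk, Ctsd and Ctsa. MC903 replicate 1 lies far above the other MC903 libraries in Ctsz and Ctsa.

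Cathepsin S cleaves the invariant chain so that MHC class II molecules can load peptide, and it stays active outside the lysosome. Ctss (ENSMUSG00000038642) stood at 792, 763, 632 and 607 CPM in MC903 replicates 1 to 4. In vehicle replicates 1 to 4 it stood at 171, 203, 181 and 171 CPM. The lowest MC903 library thus held more than any vehicle library, and the vehicle libraries lay close together. The log2 fold change was 1.94 ± 0.16 (SE, adjusted p = 5.81e-06, edgeR), higher in 4 of 4 MC903 libraries. Leaving out MC903 replicate 1 or any other single library kept this call. Of 11 MHC class II processing genes, 9 were called higher and 2 were not called, beside 21.3% of all genes tested called higher. Their median log2 fold change was 1.04. The class II transactivator Ciita rose by 1.15 ± 0.16, the class II beta chains H2-Ab1 by 1.17 ± 0.17 and H2-Eb1 by 1.04 ± 0.17. The invariant chain Cd74, the substrate of cathepsin S, averaged 4546 ± 932 CPM in MC903 skin and 3516 ± 631 CPM in vehicle skin (SD, n = 4 each) and was not called (adjusted p = 0.188). The summed level of the 11 overlapped between the groups, at 5614 to 9178 CPM in MC903 skin and 3879.6 to 5682 CPM in vehicle skin. The number of these 11 genes called higher was 7 to 9 over the alternative analyses. Among other known targets of cathepsin S, the protease-activated receptor gene F2rl1 averaged 27.2 ± 5.96 CPM in MC903 skin and 33.7 ± 6.35 CPM in vehicle skin. The membrane chemokine gene Cx3cl1 averaged 3.75 ± 1.09 CPM in MC903 skin and 5.46 ± 0.775 CPM in vehicle skin. Neither was called (adjusted p = 0.189 and 0.0846), though Cx3cl1 was called lower with upper quartile scaling (adjusted p = 0.0486) or without MC903 replicate 4 (0.0475).

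Ctss and Ctsk are neighbours on chromosome 3 in the mm10 coordinates of the tables, Ctsk from 95499286 to 95509362 and Ctss from 95526786 to 95556403, both on the plus strand. Cathepsin K is the collagen-degrading protease of osteoclasts and is also made by skin fibroblasts. Ctsk (ENSMUSG00000028111) had 324, 253, 227 and 379 CPM in MC903 replicates 1 to 4, against 135, 205, 159.8 and 256 CPM in vehicle replicates 1 to 4. The groups overlapped, since vehicle replicate 4 exceeded MC903 replicates 2 and 3. Its log2 fold change of 0.65 ± 0.23 passed the threshold narrowly (adjusted p = 0.0391, edgeR). It did not pass with library sizes alone (adjusted p = 0.0811), with upper quartile scaling (0.0598), or without any 1 of MC903 replicates 1 and 4 and vehicle replicates 1, 2 and 3 (0.0608 to 0.104). Fibroblast markers had no call in its direction: of 9, 2 were called lower, among them the matrix proteoglycan gene Dcn (-0.74 ± 0.19), and 7 were not called, among them the collagen gene Col1a1 (adjusted p = 0.198). Their summed level was 7650 to 11302 CPM in MC903 skin and 11174 to 15519 CPM in vehicle skin. Osteoclast markers split, with 3 of 6 tested called higher and 1, the RANK receptor gene Tnfrsf11a, called lower, a call lost in 4 of 16 alternative analyses. In MC903 skin Ocstamp, Dcstamp and Itgb3, the higher ones, averaged 1.31, 1.80 and 13.7 CPM, and Tnfrsf11a averaged 13.2 CPM. In vehicle skin the means were 0.131, 0.652, 8.08 and 18.2 CPM in the same order. Ocstamp and Dcstamp had enough reads to test only through their MC903 libraries. Over all genes tested, 21.3% were called higher and 20.2% lower. The osteoclast phosphatase gene Acp5 averaged 77.2 ± 19.9 CPM in MC903 skin and 81.3 ± 27.4 CPM in vehicle skin and was not called (adjusted p = 0.828).

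Cathepsins B, L, H and Z are the broadly expressed cysteine proteases of the lysosome, and cathepsin L is also known for its role in epidermal and hair follicle turnover. All 4 genes were called higher, with no overlap between the groups. Ctsl (ENSMUSG00000021477) had 956, 839, 669.8 and 781 CPM in MC903 skin, against 282, 335, 361 and 305 CPM in vehicle skin. Its lowest MC903 library was well above its highest vehicle library, and the log2 fold change was 1.34 ± 0.17 (adjusted p = 0.000109, edgeR). Ctsb (ENSMUSG00000021939) was the most read member in MC903 skin. It had 1913, 1273, 1221 and 1396 CPM there, against 779.9, 892, 896 and 673 CPM in vehicle skin. Its log2 fold change was 0.84 ± 0.20 (adjusted p = 0.00578), and without MC903 replicate 1, its highest library, it was 0.68 (adjusted p = 0.00782).

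Cathepsin H is an aminopeptidase, and cathepsin Z, also called cathepsin X, is a carboxypeptidase. Ctsh (ENSMUSG00000032359) had 431, 302, 290.3 and 275 CPM in MC903 skin, against 151, 138, 144 and 130.0 CPM in vehicle skin. The vehicle libraries agreed within a narrow range, and the log2 fold change was 1.21 ± 0.17 (adjusted p = 0.00019). Ctsz (ENSMUSG00000016256) had 372, 199, 195 and 181 CPM in MC903 skin and 94.5, 131, 97.6 and 79.4 CPM in vehicle skin. The other 3 MC903 libraries lay together and replicate 1 stood far above them. The log2 fold change was 1.24 ± 0.24 (adjusted p = 0.00205) with that library and 0.94 (adjusted p = 0.00123) without it.

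Cathepsin C, or dipeptidyl peptidase I, trims several of the serine proteases stored in the granules of neutrophils, mast cells and cytotoxic lymphocytes into their active form. Ctsc (ENSMUSG00000030560) had 291, 331, 288 and 339 CPM in MC903 skin, against 96.6, 117, 109.5 and 85.8 CPM in vehicle skin. It was the only member besides Ctse in which MC903 replicate 1 lay below the mean of the other MC903 libraries, at 0.911 times that mean. The log2 fold change was 1.61 ± 0.14 (adjusted p = 1.07e-05, edgeR). Of 10 genes for serine proteases of such granules, 7 had enough reads to test and 5 were called higher, beside 21.3% of all genes tested. Granzyme B, Gzmb, averaged 21.4 ± 5.93 CPM in MC903 skin and 0.953 ± 0.231 CPM in vehicle skin (4.47 ± 0.25), and granzyme A, Gzma, rose by 4.70 ± 0.65, with 232 counts summed over the MC903 libraries and 10 over the vehicle libraries. Gzma had enough reads to test only through its MC903 libraries. The mast cell chymase Mcpt4 rose by 0.70 ± 0.14. Ctsg, cathepsin G itself, averaged 1.74 ± 0.186 CPM in MC903 skin and 1.37 ± 0.161 CPM in vehicle skin and was not called (adjusted p = 0.224). The neutrophil proteases were barely read: Elane had 6 counts summed over the MC903 libraries and 12 over the vehicle libraries, and Prtn3 had 40 counts in MC903 skin and 29 in vehicle skin. Of 8 neutrophil markers, 4 had enough reads to test and were called higher, among them the chemokine receptor Cxcr2 (2.82 ± 0.15) and the growth factor receptor Csf3r (3.01 ± 0.32). Mmp8 and Retnlg, also tested, averaged only 0.675 and 0.877 CPM in vehicle skin. They had enough reads to test only through their MC903 libraries, the group where they are high, which favours such a call. The 4 untested markers went in different directions in summed counts: Ly6g had 6 in MC903 skin and 0 in vehicle skin, Ngp 49 in MC903 skin and 10 in vehicle skin, Camp 12 in MC903 skin and 13 in vehicle skin, and Mpo 13 in MC903 skin and 53 in vehicle skin. Mast cell markers were called higher in 4 of 7 cases and lower in 1, beside 21.3% and 20.2% of all genes tested. The marker proteases Cma1 (0.89 ± 0.22) and Tpsb2 (0.74 ± 0.25, adjusted p = 0.0332) were among the higher ones. The call on Tpsb2 was lost in 8 of 16 alternative analyses, where its adjusted p ran up to 0.0792.

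Of the 2 aspartic members, Ctse was called higher and Ctsd was not called. Cathepsin D is the main aspartic protease of the lysosome and is known to take part in epidermal differentiation. Ctsd (ENSMUSG00000007891) had 1606, 952, 1054 and 1385 CPM in MC903 skin, against 739.5, 1193, 1081 and 917 CPM in vehicle skin. The groups overlapped widely, and the log2 fold change of 0.35 ± 0.22 was not called (adjusted p = 0.231, 95% interval -0.14 to 0.83). Cathepsin E is a non-lysosomal relative found in antigen-presenting cells and surface epithelia. Ctse (ENSMUSG00000004552) was rare, with 35, 35, 30 and 29 counts in MC903 replicates 1 to 4 and 3, 15, 7 and 26 counts in vehicle replicates 1 to 4. That is 1.98 to 2.91 CPM in MC903 skin and 0.176 to 1.62 CPM in vehicle skin, with vehicle replicate 1 at the 3 counts taken as the detection floor. Ctse had enough reads to test only through its MC903 libraries, the group where it is high. Its log2 fold change of 1.54 ± 0.48 was called (adjusted p = 0.0235, edgeR), but not without MC903 replicate 2 (1.44, adjusted p = 0.0572) or vehicle replicate 3 (1.29, adjusted p = 0.0689).

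Cathepsin A is a carboxypeptidase that protects beta-galactosidase (Glb1) and the sialidase Neu1 in a shared lysosomal complex. Ctsa (ENSMUSG00000017760) had 391, 227, 208 and 209 CPM in MC903 skin, against 245, 246, 296 and 231 CPM in vehicle skin. Of the 4 MC903 libraries, 3 lay below all 4 vehicle libraries and replicate 1 lay above them. The log2 fold change was 0.02 ± 0.21 (adjusted p = 0.948, 95% interval -0.44 to 0.48), and -0.24 without MC903 replicate 1 (adjusted p = 0.144). Of its partners, Neu1 was called higher (18.6 ± 3.99 CPM in MC903 skin and 9.999 ± 1.57 CPM in vehicle skin, 0.90 ± 0.18) and Glb1 was not (27.4 ± 7.66 CPM in MC903 skin and 24.8 ± 6.20 CPM in vehicle skin, adjusted p = 0.624).

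**Figure D2:**
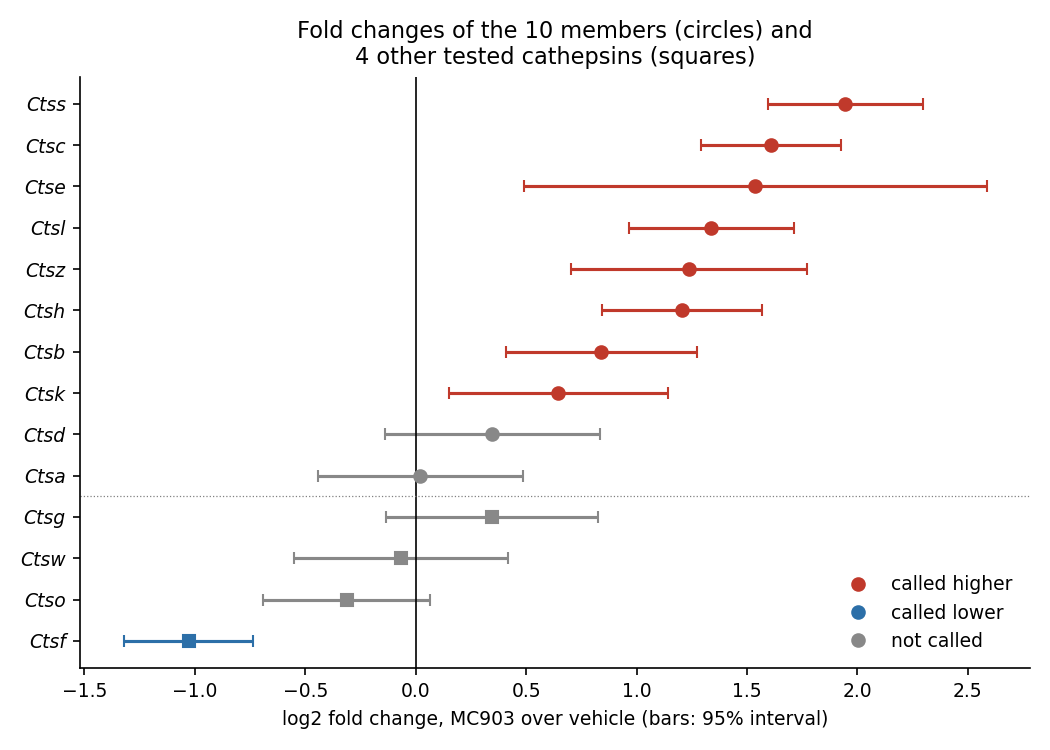
Log2 fold change, MC903 over vehicle, with its 95% interval for the 10 cathepsins (circles, above the dotted line) and 4 other tested cathepsin genes (squares). Red is called higher, blue called lower, grey not called. The circles run from 1.94 in Ctss to 0.02 in Ctsa, and the only gene called lower is Ctsf.

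None of the other genes that carry the cathepsin name was called higher. Of 13, only 4 had enough reads to test: 1, Ctsf, was called lower and 3 were not called. Ctsf, a widely expressed lysosomal cysteine protease, averaged 15.5 ± 1.44 CPM in MC903 skin and 31.7 ± 3.90 CPM in vehicle skin (SD, n = 4 each), a log2 fold change of -1.03 ± 0.13 (adjusted p = 0.000132, edgeR), lower in 4 of 4 MC903 libraries. Ctso averaged 27.5 ± 2.95 CPM in MC903 skin and 34.1 ± 8.36 CPM in vehicle skin (adjusted p = 0.167), and Ctsw, known from natural killer and cytotoxic T cells, 5.36 ± 0.486 CPM in MC903 skin and 5.63 ± 1.68 CPM in vehicle skin (adjusted p = 0.83). The 9 placental-type genes of the chromosome 13 cluster (Cts3, Cts6, Cts7, Cts8, Ctsj, Ctsm, Ctsq, Ctsr and Ctsll3) were not detectable at this depth, with 7 of them at 0 counts in all 8 libraries and 0 counts in MC903 skin and at most 3 in vehicle skin for the other two.

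In the mm10 coordinates of the tables, Ctsa lies on chromosome 2 from 164832873 to 164841032 and Ctsz on the same chromosome from 174427493 to 174439039. Ctsc (88278085 to 88310888) and Ctsd (142371148 to 142388038) lie on chromosome 7. Ctse is on chromosome 1 (131638306 to 131675505), Ctsh on 9 (90054152 to 90076089), Ctsl on 13 (64363214 to 64370306) and Ctsb on 14 (63122462 to 63145919). All 10 are annotated as protein-coding genes, and the counts are over their exons, UTRs included. Read counts of some members could include reads of overlapping genes, since use of strand in the counting is not given. Exons of Fdft1 on the opposite strand share 767 of the 4739 exon bases of Ctsb, and Pltp and Neurl2 share 495 and 324 of the 4715 bases of Ctsa. Ifitm10, on the same strand, shares 163 of the 2519 bases of Ctsd. Fdft1, Pltp and Neurl2 were not called, and Ifitm10 was called lower (-0.75 ± 0.14) at 10.4 ± 1.45 CPM in MC903 skin and 17.6 ± 1.72 CPM in vehicle skin, a small part of the reads of Ctsd.

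Upstream sequences were available from RefSeq (build GRCm38.p6) for 7 members, Ctsa, Ctsc, Ctsd, Ctsk, Ctsl, Ctss and Ctsz, with 2 start sites for Ctsa. The 250 bases before each start were searched on both strands. The E-box core CACGTG, the centre of the element through which TFEB and TFE3 act on lysosomal genes, was found in Ctsa, Ctsd and Ctsl, and in 6.02% of all 32807 windows of that length. Ctsd carries it 2 times. The stretches are shown because they set both uncalled members and 1 called member side by side, with the core in capitals, 5′ to 3′ on the gene's strand.
Ctsa, chr2:164833713-164833772, plus strand: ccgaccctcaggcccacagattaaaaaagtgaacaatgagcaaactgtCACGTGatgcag
Ctsd, chr7:142387893-142387952, minus strand: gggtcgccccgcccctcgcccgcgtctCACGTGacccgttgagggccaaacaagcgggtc
Ctsd, chr7:142388018-142388077, minus strand: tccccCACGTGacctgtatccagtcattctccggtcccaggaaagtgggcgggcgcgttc
Ctsl, chr13:64370711-64370770, minus strand: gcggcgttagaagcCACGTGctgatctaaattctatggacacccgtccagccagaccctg
Counted from the RefSeq start of its window, the core begins 12 bases upstream in Ctsa, 98 and 245 bases in Ctsd and 236 bases in Ctsl. In Ctsa it was found in 1 of the 2 windows, whose start lies inside the gene as the tables place it, and the nearer match of Ctsd also lies inside the coordinates of the tables. Thus Ctsd and Ctsa, which were not called, and Ctsl, which rose, all hold the core, and the windows of Ctsc, Ctsk, Ctss and Ctsz do not. A match is a description of the letters and not a site of binding.

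In Ctsc the same search found a PU.1-type site, GAGGAAGT, read on the opposite strand and shown in capitals as ACTTCCTC. It is shown because PU.1 is a main factor of myeloid cells and this was its one match among the members searched. The windows of Ctss, which had the largest rise, and of Ctsa, Ctsd, Ctsk, Ctsl and Ctsz held none.
Ctsc, chr7:88277907-88277966, plus strand: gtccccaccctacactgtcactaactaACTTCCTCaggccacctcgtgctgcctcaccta
That motif was in 2.44% of all windows. Ctsc also held the STAT-type palindrome TTCNNNGAA, as TTCCTTGAA beginning 236 bases before its start, found in 7.02% of windows. The core extended by GT before it and AC after it, as in the full lysosomal element (0.241% of windows), the AP-1 site TGANTCA (6.75%) and a direct repeat of the vitamin D receptor half-site AGGTCA with a spacer of 3 bases (0.0061%) had no match in any member's window. Only exact matches were counted. The letters before and after the core are GT and AT in Ctsa and GC and CT in Ctsl. In Ctsd they are CT and AC at the nearer match and CC and AC at the farther.

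To compare levels between genes, CPM was divided by exon length in kilobases (RPKM on the TMM scale). The summed level of the 10 members was 2816, 2116, 1929 and 2234 RPKM in MC903 replicates 1 to 4, against 986, 1314, 1225 and 1108 RPKM in vehicle replicates 1 to 4. The groups did not overlap, and the means were 1.96-fold apart (2274 ± 383 RPKM in MC903 skin and 1158 ± 142 RPKM in vehicle skin, SD, n = 4 each). No p is given for this sum or for the shares below, since the members were chosen with earlier results of these data known. The order of the genes also differed. In MC903 skin Ctss was highest at 514 ± 68.4 RPKM, followed by Ctsd (496 ± 119.8), Ctsl (412 ± 60.4) and Ctsb (306 ± 66.9), and the ranges of neighbours among these 4 overlapped. In vehicle skin Ctsd was highest at 390.1 ± 78.5 RPKM, and its libraries did not overlap those of any other member. There Ctsb (171 ± 22.4), Ctsl (163 ± 17.7), Ctss (134 ± 11.0) and Ctsk (128 ± 36.1) followed, and the ranges of neighbours among these overlapped. Ctse was last in both groups, at 0.757 ± 0.121 RPKM in MC903 skin and 0.264 ± 0.211 RPKM in vehicle skin. These orders rest on the division by exon length. By mean CPM in MC903 skin, Ctsb stood at 1451, Ctsd at 1249, Ctsl at 811 and Ctss at 698. In vehicle skin the mean CPM was 983 in Ctsd, 810 in Ctsb, 321 in Ctsl and 181 in Ctss.

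As a share of the summed level, Ctss was higher and Ctsd lower in every MC903 library than in any vehicle library. Ctss held 20.7%, 26.6%, 24.1% and 20.002% in MC903 replicates 1 to 4, and 12.8%, 11.4%, 10.9% and 11.3% in vehicle replicates 1 to 4. Ctsd held 22.6%, 17.9%, 21.7% and 24.6% in MC903 skin, and 29.8%, 36.04%, 35.1% and 32.9% in vehicle skin. Ctsd still held more than Ctss in MC903 replicates 1 and 4 and in all 4 vehicle libraries. Ctsl held a larger share in MC903 skin (18.2% ± 1.32 in MC903 skin and 14.1% ± 0.87 in vehicle skin), as did Ctsc (2.42% ± 0.427 and 1.53% ± 0.145), whereas Ctsa held a smaller one (2.37% ± 0.406 and 4.70% ± 0.61), again with no overlap between the groups. The shares of Ctsb, Ctse, Ctsh, Ctsk and Ctsz overlapped between the groups. With counts not divided by length, the differences of Ctss, Ctsd, Ctsl, Ctsc and Ctsa kept their direction, but 3 shifted by more than the SD between replicates. The difference in share, MC903 minus vehicle, was then 6.63 points for Ctss (11.2 with length), 2.35 for Ctsc (0.89) and -3.81 for Ctsa (-2.33).

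**Figure D3:**
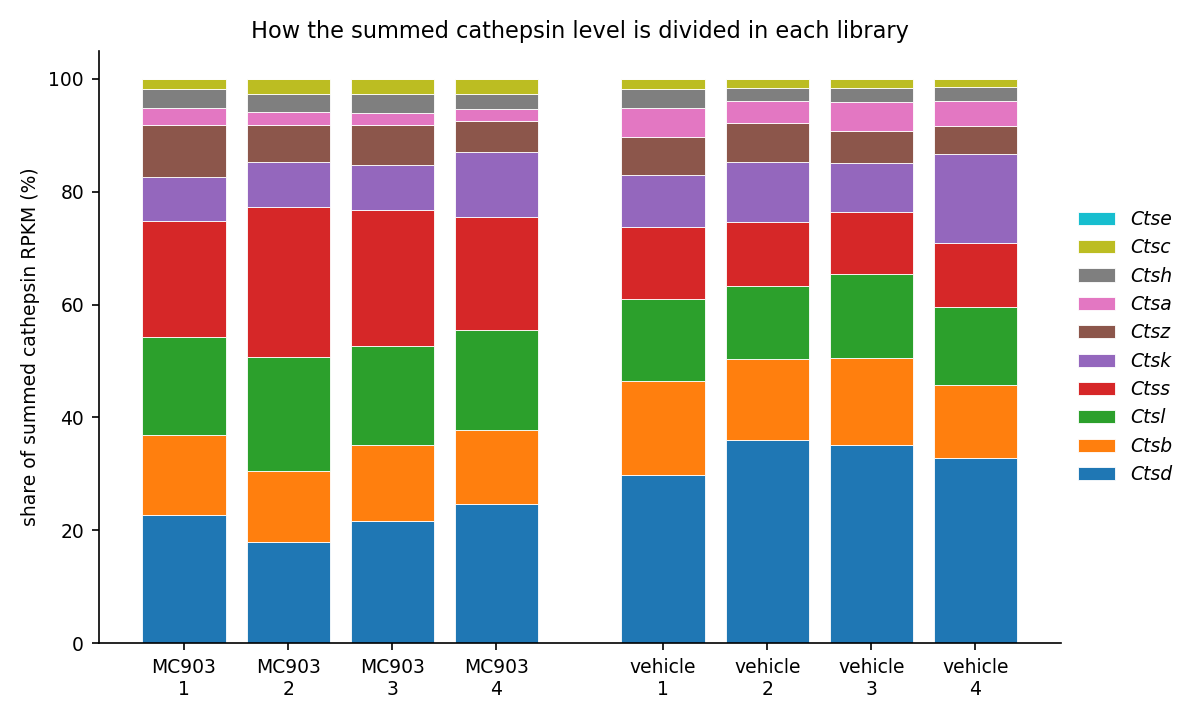
Share of the summed cathepsin RPKM (vertical axis, percent) held by each of the 10 genes in the 4 MC903 libraries and the 4 vehicle libraries, one stacked bar a library. The Ctss band covers 20.002% to 26.6% in MC903 skin and 10.9% to 12.8% in vehicle skin, and the Ctsd band 17.9% to 24.6% and 29.8% to 36.04%. Ctse is too small to be seen.

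Most of the tested inhibitors of the cysteine members were higher too, but not the most read ones. Of 13 tested genes in the list of cystatin-type inhibitors, 10 were called higher and 3 were not called, beside 21.3% of all genes tested called higher. The list also holds Ctla2a and Ctla2b, which are related to the cathepsin L propeptide and are not cystatins. The median log2 fold change was 3.27. Much of this count and median comes from the stefin A genes Stfa1, Stfa2, Stfa2l1, Stfa3 and Csta1 and the related BC100530 and BC117090. A further cystatin, Cst10, was not in that list and was called lower (-8.89 ± 2.53, adjusted p = 0.0157), at 1.30 to 2.33 CPM in MC903 skin and 1.03 to 3394 CPM in vehicle skin. Vehicle replicate 2, the library with the salivary genes, held 44253 of its 44365 vehicle counts. The rises with the smallest p were in the intracellular stefins Stfa3 (602 ± 154 CPM in MC903 skin and 5.46 ± 1.31 CPM in vehicle skin, 6.79 ± 0.27), Stfa2 (7.21 ± 0.30) and Stfa1 (5.88 ± 0.29), which are near-identical copies whose single levels are uncertain. The 2 most read inhibitors of the list, both secreted, were not called: cystatin C, Cst3, averaged 1325 ± 152 CPM in MC903 skin and 1388 ± 96.1 CPM in vehicle skin (adjusted p = 0.768), and cystatin M, Cst6, 1546 ± 293 CPM in MC903 skin and 1583 ± 408 CPM in vehicle skin (adjusted p = 0.915).

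Genes of lysosomal processing and sorting, not all of which act on cathepsins, were split. Of 10 such genes, 3 were called higher (Scarb2, Lgmn and Grn) and 2 lower, beside 21.3% and 20.2% of all genes tested. Legumain, Lgmn, which processes several cathepsins to their mature chains, averaged 239 ± 51.7 CPM in MC903 skin and 80.8 ± 14.8 CPM in vehicle skin (1.57 ± 0.19, adjusted p = 7.37e-05, edgeR), and Scarb2, a lysosomal membrane receptor that carries glucocerebrosidase, rose by 1.18 ± 0.13. Gnptab, which makes the mannose 6-phosphate tag, fell by 0.43 ± 0.13 on the log2 scale (adjusted p = 0.0194), and Sort1, a sorting receptor, by 0.39 ± 0.11 (adjusted p = 0.0139). The call on Gnptab was lost in 4 of 16 alternative analyses and that on Sort1 in 2. The tag receptors M6pr (106 ± 41.4 CPM in MC903 skin and 72.7 ± 25.4 CPM in vehicle skin) and Igf2r (87.8 ± 8.96 CPM in MC903 skin and 72.8 ± 7.23 CPM in vehicle skin) were not called (adjusted p = 0.136 and 0.0969).

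Other lysosomal genes were mixed. Over all genes tested, 21.3% were called higher and 20.2% lower. Of 33 other lysosomal hydrolases and their cofactors, 9 were called higher, 5 lower and 19 not, with a median log2 fold change of 0.25. The 3 with the smallest p were alpha-galactosidase, Gla (1.52 ± 0.17), the carboxypeptidase Prcp (0.83 ± 0.12) and beta-glucuronidase, Gusb (0.81 ± 0.13). The 5 lower were Aga (-0.65 ± 0.13), Arsa (-0.76 ± 0.17), Idua (-0.61 ± 0.16), Fuca1 (-0.60 ± 0.15) and Gaa (-0.45 ± 0.15, not called in 5 of 16 alternative analyses), which break down glycoproteins, sulfatides, glycosaminoglycans, fucosylated chains and glycogen. Over the alternative analyses 5 to 11 were called higher and 4 to 7 lower. Of 17 genes of the lysosomal membrane and its proton pump, 11 were called higher and 6 were not called (median 0.51), led by the pump subunits Atp6v1b2 (0.78 ± 0.10) and Atp6v0c (0.68 ± 0.12) and by Laptm5 (1.07 ± 0.20), a membrane protein of blood cells. The number higher ran from 5 to 11 over the alternative analyses. Among 5 regulators, Tfec, the myeloid member of the TFE family, averaged 8.23 ± 2.68 CPM in MC903 skin and 0.675 ± 0.306 CPM in vehicle skin (3.57 ± 0.34, adjusted p = 1.67e-05), and Tfe3 rose by 0.56 ± 0.13, a call lost with library sizes alone (adjusted p = 0.0653). Tfeb averaged 4.40 ± 0.79 CPM in MC903 skin and 6.42 ± 1.30 CPM in vehicle skin and was not called (adjusted p = 0.0527), but it was called lower with upper quartile scaling (adjusted p = 0.0347) or without vehicle replicate 2 (0.04).

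**Figure D4:**
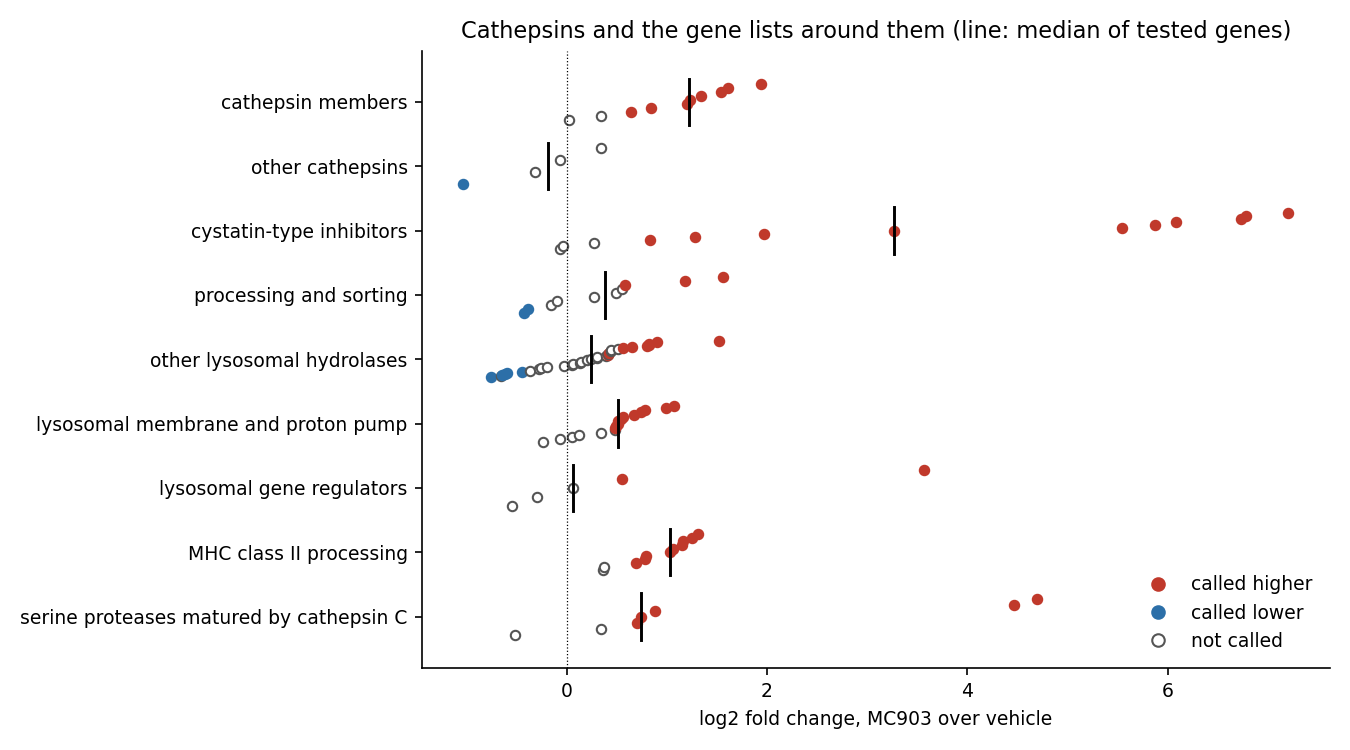
Log2 fold change, MC903 over vehicle, of each tested gene in the cathepsin family and in 8 related lists. Each point is a gene, filled where called, and the black line is the list's median. The list labelled as matured by cathepsin C is that of granule serine proteases. The cathepsin median is 1.22, the median of the other hydrolases 0.25 and that of the cystatin-type inhibitors, a list that includes Ctla2a and Ctla2b, 3.27.

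The genes whose 8 values most resembled those of Ctss, the member with the largest rise, were sought among 10722 well-read genes by the root mean square difference of log2 CPM after subtracting each gene's vehicle mean. The closest were Ctla2a (0.081), which encodes a protein related to the cathepsin L propeptide, Aoah (0.111), a lipopolysaccharide-degrading enzyme, and Ms4a6b (0.114), a membrane protein of leukocytes. Ctla2a averaged 71.2 ± 10.5 CPM in MC903 skin and 18.2 ± 1.33 CPM in vehicle skin, a log2 fold change of 1.97 ± 0.14. Aoah rose by 2.09 ± 0.16 and Ms4a6b by 1.95 ± 0.15. No member was called lower by edgeR, DESeq2 or limma-voom (0 also at an unadjusted p under 0.05 in each), so no such search was made for a fall.

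Other cell markers measured beside the cathepsins moved in several directions. The shares over all genes tested were 21.3% called higher and 20.2% lower. The most read macrophage genes, Lyz2 and C1qb, rose by 1.03 ± 0.18 and 2.08 ± 0.23, and Mertk, a receptor for dying cells, fell by 0.70 ± 0.12 on the log2 scale. Dendritic and Langerhans cell markers were called higher in 3 of 9 cases, among them the lectin gene Cd209a (0.65 ± 0.16), and Epcam was not called (adjusted p = 0.352). Their summed level was 196 to 228 CPM in MC903 skin and 143 to 171 CPM in vehicle skin. Keratinocyte markers were called higher in 3 of 8 cases and lower in 1, with Krt14 at 7064 ± 827 CPM in MC903 skin and 1935 ± 256 CPM in vehicle skin (1.87 ± 0.19) and Krt10 not called (adjusted p = 0.448). Their summed level was 13023 to 14861 CPM in MC903 skin and 8341 to 10479.8 CPM in vehicle skin. T and NK cell markers were called higher in 5 of 7 tested, among them Nkg7 (0.56 ± 0.17), a call lost in 4 of 16 alternative analyses, and Cd3g was not called (adjusted p = 0.607). All 5 tested cartilage markers were lower, led in level by Chad (-1.90 ± 0.22) and Sox9 (-0.72 ± 0.21), as were 4 of 5 adipocyte markers, among them Adipoq (-1.27 ± 0.38) and Cidec (-1.36 ± 0.43), whose calls were lost in 3 of 16 alternative analyses each. The part of these cell types in the cathepsin values was not tested.

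MC903 replicate 1 set much of the spread within the treated group. It was the highest MC903 library in 7 of the 10 members, against 33.5% of all genes tested. Its level relative to the mean of the other 3 MC903 libraries was 1.94 times in Ctsz, 1.82 in Ctsa, 1.49 in Ctsh, 1.48 in Ctsb and 1.42 in Ctsd, but 1.25 in Ctsl, 1.19 in Ctss, 1.13 in Ctsk and 0.911 in Ctsc. The same library was highest in 24 of 33 other lysosomal hydrolases, whose summed level there was 2822 CPM, against 2087 to 2190 CPM in the other 3 MC903 libraries. The excess was not limited to these enzymes. MC903 replicate 1 was also highest in 8 of 11 MHC class II processing genes, with a summed level of 9178 CPM, against 5614 to 7185 CPM in the other MC903 libraries. It was highest in 6 of 10 processing and sorting genes, 3 of 5 cartilage markers and 5 of 11 macrophage markers. Among keratinocyte markers it was highest in 1 of 8, and among adipocyte markers in 0 of 5. Without it 7 members were called higher, and Ctsk was not (adjusted p = 0.0684).

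**Figure D5:**
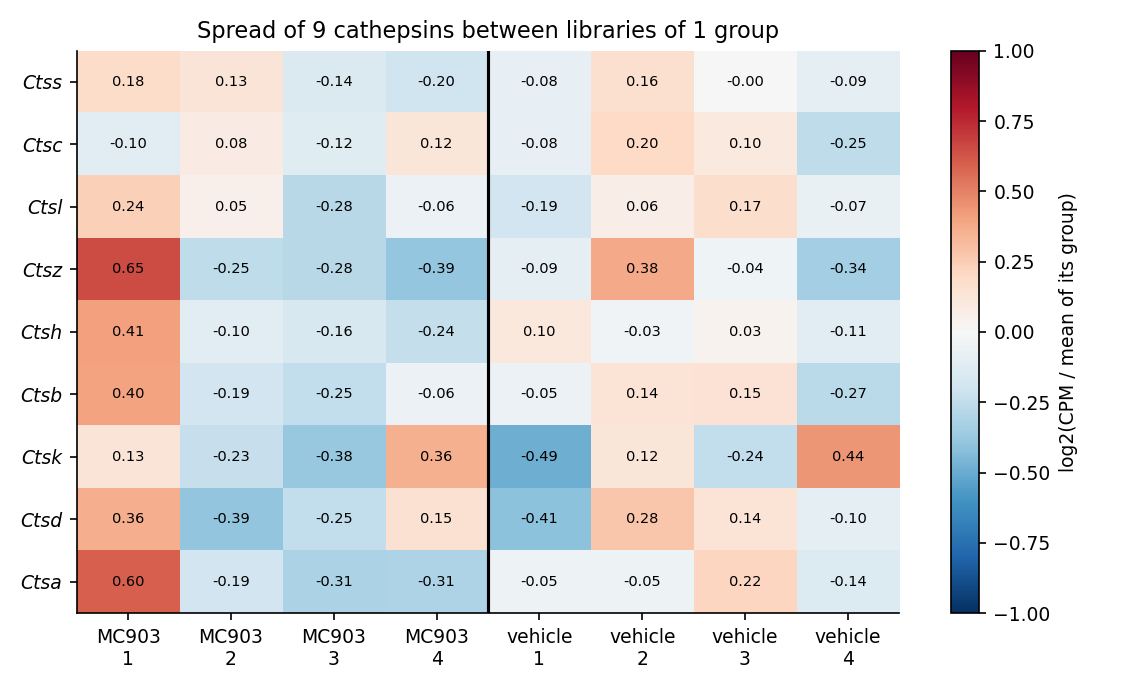
Log2 of each library's CPM over the mean of its own group for 9 cathepsins, Ctse left out for its low counts, with MC903 libraries left and vehicle libraries right of the line. Red is above and blue below the group mean. MC903 replicate 1 is red in all of them but Ctsc, most in Ctsz (0.65) and Ctsa (0.60).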

How the data were processed

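Per the labels' protocols, total RNA was depleted of ribosomal RNA, primed with random hexamers and sequenced as single reads of 50 bases. The authors deposited, for each library, read counts per Ensembl gene with CPM and RPKM beside them. Genome build mm10 with STAR 2.0.4b, featureCounts 1.4.5 and Subread is named per the submitters' processing notes. How strand and multi-mapping reads were handled, and the annotation release, are not given in the sources used here. Recomputation showed that the deposited CPM and RPKM values followed from the counts to within 2.33e-10 and were otherwise not used.

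Symbols were matched for 40254 of 41388 identifiers, and all results rest on the counts. Genes were filtered with filterByExpr, scaled by TMM and tested with edgeR 4.0.16 (R 4.3.3) with group as the only term. The filter worked by group, so a gene could be tested on the reads of 1 group alone. Genes rare in vehicle skin, such as Ctse, Gzma, Ocstamp, Mmp8, Retnlg and Tfec, were tested only because of their MC903 reads. A call of higher is favoured for such genes. SE is the fold change divided by the square root of F. The method was tested on simulated data. There, 7 of 50 genes changed 1.5-fold, 33 of 50 changed 2-fold and 48 of 50 changed 4-fold were called. Of all calls there, 5.52% were false. A gene not called may thus still have changed. A detection floor of 3 counts covers counting error only. The design text gives 4 mice a group, and p-values measure the spread between these samples. Members, 19 gene lists and motifs were chosen with earlier results of these data known. Named are all members, the 3 smallest p of each pathway list with any gene called against its list, the 2 most read genes of each marker list, and the targets F2rl1 and Cx3cl1. Other genes were named after their values were seen. A permutation test planned for the sum and shares is not reported. Alternatives were other scalings and filters, DESeq2 1.42.0, limma 3.58.1 (voom), the replicate number as a block and leaving out each library.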

Additional observations from a re-analysis of the deposited data

Results flagged for a closer look

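Among the 42 sets of 4 libraries checked (CPM and share of each member, and the summed level, in each group), 4 had a library whose gap to the nearest other exceeded Dixon's 95% critical value for 4 samples. Chance gives about 5% of such sets. In MC903 replicate 1, Ctsa stood at 391 CPM, against 208 to 227 CPM in the other MC903 libraries. In the same library Ctsz stood at 372 CPM, against 181 to 199 CPM in the others, and the Ctsc share of the summed cathepsin level was low at 1.78%, against 2.57% to 2.70%. In MC903 replicate 4 the Ctsk share was high at 11.5%, against 7.77% to 8.06% in the others.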

How the results depend on the processing

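Of 16 alternative analyses, Ctss, Ctsc, Ctsl, Ctsh, Ctsz and Ctsb were called higher in all, Ctse in 14 and Ctsk in 9, and Ctsd and Ctsa in none. The number of members called higher was 6 to 8 when each library was left out in turn, 6 without vehicle replicate 3, where Ctse and Ctsk were both lost. Ctsa changed sign with several settings but was never called (-0.24 to 0.12). The count of all genes called, 6682, fell to 1051 when tested against a 2-fold minimum. That setting is not among the 16, and calls of single members under it are not given. The summed cathepsin level stayed between 0.85 and 1.04 (log2 ratio) with each library left out. With counts not divided by gene length, the share differences, MC903 minus vehicle, were -3.81 points for Ctsa, 2.35 for Ctsc, 1.13 for Ctsh and 6.63 for Ctss, against -2.33, 0.89, 0.43 and 11.2 with length. Upper quartile scaling and library sizes alone moved the median log2 fold change of all genes to -0.11 in both cases. Same-numbered libraries did not deviate together (correlations of -0.238 to 0.081), and the numbers were not taken as pairs. Correlations of so few libraries cannot exclude a pairing with a weak effect. With the replicate number as a block, 8 members were called higher and 5705 genes were called in all. Low counts limit Ctse.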
